A study of Mus musculus with 58 samples.

Results

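The 43 genes described here are type I interferon response genes of the mouse, taken by name from a fixed list, and all 43 were found among the 24028 genes of the deposited tables. Type I interferons (interferon-alpha and interferon-beta) bind the receptor made of IFNAR1 and IFNAR2, whose kinases TYK2 and JAK1 phosphorylate STAT2. STAT2 and IRF9 act in the complex ISGF3, which binds interferon-stimulated response elements and turns on antiviral genes such as those listed here. The 43 comprise 3 signalling factors (Irf7, Irf9, Stat2), 3 sensors of foreign RNA or DNA (Ifih1, Dhx58, Zbp1), 4 IFIT genes, 6 of the OAS family, 9 antiviral effectors, 4 of the ISG15 system (Isg15, Usp18, Herc6, Trim25), 3 of ADP-ribosylation (Parp9, Parp14, Dtx3l) and 11 others. In T cells the pathway is known to shape proliferation, survival and effector differentiation as well as antiviral defence.

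RNA was sequenced from CD4+ T cells in 58 libraries of 15 groups, 3 genotypes in 5 states, in a study whose title places the non-coding RNA miR-17∼92 in T cell costimulation. Wild-type mice (WT) carried no Cre. Mice of the genotype CD4cre.miR-17∼92lox/lox (KO) delete the microRNA cluster in cells in which the Cd4 promoter drives Cre. Mice of the genotype CD4cre.Rosa26loxSTOPloxCAG-miR-17∼92Tg (TG) carry a Cre-activated copy of it under the CAG promoter in the Rosa26 locus. Since both KO and TG mice carried Cre and WT mice did not, Cre and the altered cluster cannot be told apart in a comparison with WT. A kit was used to isolate naive cells, from a pool of spleen and lymph node cells of 10 male and female mice. The cells were taken uncultured, or after 24 or 48 h on anti-CD28 at 0.2 µg/ml with anti-CD3 at 0.25 µg/ml (very weak) or 0.5 µg/ml (weak), with 50 U/ml of IL-2 in the medium. Mouse age was not given in the sources used here. Each group held 4 libraries, numbered 1 to 4, and KO naive and WT naive held 3 (numbers 1, 2 and 4). The labels do not say whether a number marks a separate culture or a set of mice, so p-values measure the spread between these libraries. In the fit of all 58 libraries that spread was set per gene over the 15 groups together, not over the compared groups alone.

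Each library held 19.2 to 20.8 M counts in the full table. The T cell markers summed to 5407 to 7682 CPM (counts scaled to a common library size with edgeR's TMM factors) in naive cells and to 2901 to 4497 CPM at 48 h. The host gene of the cluster, Mir17hg, spanned 38.3 to 144.5 CPM in KO, 18.3 to 60.3 CPM in WT and 20.5 to 103 CPM in TG libraries. Its RefSeq span begins beyond the hairpin of miR-17 and nearly all of it lies past that of miR-92a-1, so its level does not check the deletion. Naive libraries held more RNA of other blood cells than cultured ones. Markers of myeloid cells summed to 151.6 to 401 CPM in naive, 32.2 to 53.4 CPM at 24 h and 39.5 to 94.0 CPM at 48 h, and those of plasmacytoid dendritic cells to 28.0 to 86.2, 6.61 to 18.8 and 10.1 to 16.6 CPM. In bulk RNA, fewer cells of a type and less RNA per cell cannot be told apart.

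Several members lie in clusters. Ifit2 (chr19:34550550-34576534), Ifit3 (chr19:34583119-34588982), Ifit3b (chr19:34607530-34613403) and Ifit1 (chr19:34640889-34650009) are neighbours, as are Oas2, Oas3, Oas1g and Oas1a on chromosome 5 and Mx1 and Mx2 on chromosome 16 (mm10). The promoters of several members carry the letters that ISGF3 and the related IRF factors are known to bind. RefSeq promoter sequences (build GRCm38.p6, 250 bases before to 50 after each start) were at hand for 32 of the 43 members. A pair of GAAA cores with any 2 bases between them, on either strand, stood in 15 of these 32 (46.9%), against 3.99% of the 27025 promoters of that length. Irf7, Irf9 and Ifi44 were among the 17 members without such a pair. The windows below, 6 of those with a match, are shown to compare how the cores are placed in members of different roles, with the paired cores in capitals (GAAA on the strand shown, or TTTC where the match is on the other strand).
Isg15 (chr4:156200850-156200921, minus strand): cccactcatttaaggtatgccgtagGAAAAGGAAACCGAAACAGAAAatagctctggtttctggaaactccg
Ifit1 (chr19:34640760-34640838, plus strand): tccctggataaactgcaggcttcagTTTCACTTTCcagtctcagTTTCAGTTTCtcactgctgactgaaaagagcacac
Ifit3 (chr19:34583348-34583441, plus strand): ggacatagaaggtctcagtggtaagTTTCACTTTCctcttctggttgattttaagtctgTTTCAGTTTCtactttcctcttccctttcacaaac
Rsad2 (chr12:26456538-26456597, minus strand): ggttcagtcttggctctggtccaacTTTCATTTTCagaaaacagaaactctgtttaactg
Stat2 (chr10:128270251-128270310, plus strand): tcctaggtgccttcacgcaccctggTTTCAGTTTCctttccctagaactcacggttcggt
Oas1a (chr5:120907526-120907570, minus strand): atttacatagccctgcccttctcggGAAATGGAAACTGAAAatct
Isg15 held 3 overlapping matches, Ifit1, Ifit3 and Oas1a held 2 each, and Rsad2 and Stat2 held 1 each. The window of Ifit3b (chr19:34607744-34607837) was identical to that of Ifit3 at 94 of 94 bases, and that of Oas1g to Oas1a at 43 of 43. Reads of such near-identical neighbours (Ifit3 and Ifit3b, Oas1a and Oas1g, Phf11a, Phf11b and Phf11d) may have been split between them, so their separate values are uncertain. A match describes the letters in a window and is not a measured binding site. In the comparison of TG with KO at 48 h given further on, the 15 members with a match had a median log2 difference of -3.50 (range -7.44 to -1.22) and the 17 without one -2.92 (range -7.0 to -1.0), so the ranges lay over each other.

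In naive cells the members were expressed in all genotypes, with a smaller median spread between libraries than at 48 h. Per kilobase of exon, the highest mean level in WT naive cells was that of Ifi27l2a, an interferon-inducible gene, at 208 CPM per kb. Sp100, a nuclear body protein, followed at 189 CPM per kb, and Zbp1, a sensor of Z-form nucleic acid, at 79.5 CPM per kb. The median over members of the SD divided by the mean was 0.123 in WT, 0.0824 in KO and 0.104 in TG naive cells. Ifi44 spread most in WT, at 5.10, 16.3 and 5.59 CPM. In KO against WT naive cells edgeR's quasi-likelihood test called 0 of 43 members, against 0.0365% of the 13709 genes tested, with 0 at an unadjusted p under 0.05 and 0 by DESeq2. In TG against WT naive cells it also called 0 of 43, against 7.83% of genes, with 0 at an unadjusted p under 0.05 and 0 by DESeq2. The median log2 differences were 0.06 and -0.07. Both tests rest on the spread over all 15 groups, so members not called in naive cells were not shown to be alike. For some members the TG and WT naive libraries did not overlap. Oas1a spanned 19.63 to 21.96 CPM in TG and 9.953 to 11.18 CPM in WT naive libraries (0.95 ± 0.72 on the log2 scale). Oas2 ran the other way, at 32.89 to 72.48 CPM in TG and 92.13 to 119.7 CPM in WT naive libraries.

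After 24 h on anti-CD3 and anti-CD28 most members stood far below their naive level in WT cells. Of the 43, 38 fell and 0 rose with either stimulus strength, where 40.2% (very weak) and 40.7% (weak) of all genes tested fell. The median log2 change of the members was -2.38 (very weak) and -2.69 (weak), and that of all genes -0.08 and -0.09. All 3 signalling factors (Irf7, Irf9, Stat2), all 4 IFIT genes, all 6 OAS-family genes and all 4 genes of the ISG15 system fell with both strengths. Oas2, an enzyme making the short oligoadenylates that activate RNase L, stood at 92.1, 120 and 97.7 CPM in the 3 WT naive libraries. At 24 h it spanned 0.476 to 1.96 CPM (very weak) and 0.528 to 1.20 CPM (weak), with no overlap with the naive level. Its log2 change was -6.42 ± 0.81 (SE, adjusted p = 9.8e-10, edgeR) with the very weak and -7.04 ± 0.85 (adjusted p = 2.8e-10) with the weak stimulus.

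Irf7, the transcription factor that amplifies interferon-alpha production, stood at 105, 125 and 132 CPM in the WT naive libraries and at 1.27 to 5.44 and 1.75 to 4.31 CPM after 24 h. It fell by 5.50 ± 0.86 on the log2 scale with the weak stimulus (adjusted p = 1.3e-07, edgeR). Usp18, the protease that removes ISG15 from proteins and dampens the receptor, stood at 39.4, 44.6 and 34.9 CPM in naive and at 2.69 to 5.35 CPM after weak stimulation. Its log2 change was -3.31 ± 0.88 (adjusted p = 0.00076). Irf9, the DNA-binding part of ISGF3, fell less, by 1.52 ± 0.19 on the log2 scale (adjusted p = 1.3e-09). Rsad2 (viperin), Oasl1, Samd9l and Rtp4 also fell. The 5 members that passed the test with neither strength were Mx2, Eif2ak2 (PKR, a kinase activated by double-stranded RNA), Phf11b, Bst2 (tetherin) and Ifih1 (MDA5, a sensor of double-stranded RNA). Bst2 stood at 48.6 to 57.7 CPM in WT naive and 68.1 to 75.3 CPM in WT weak 24 h libraries.

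The same drop was seen in each genotype. No library at 24 h reached the naive range for 39 of 43 members in WT, 41 in KO and 41 in TG cells, against 38.6%, 35.7% and 36.2% of genes. All 12 myeloid markers, all 8 B cell markers and 4 of 6 plasmacytoid dendritic markers also fell in WT cells between naive and weak 24 h. Their part in the lower member levels was not tested. In the intron table, whose reads come largely from unspliced RNA, 16 of 43 members fell and 0 rose in the same comparison, against 30.8% of genes lower. The sign was the same as in the full table in 38 of 43 members, with medians of -1.15 in introns and -2.69 in the full table on the log2 scale.

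**Figure D1:**
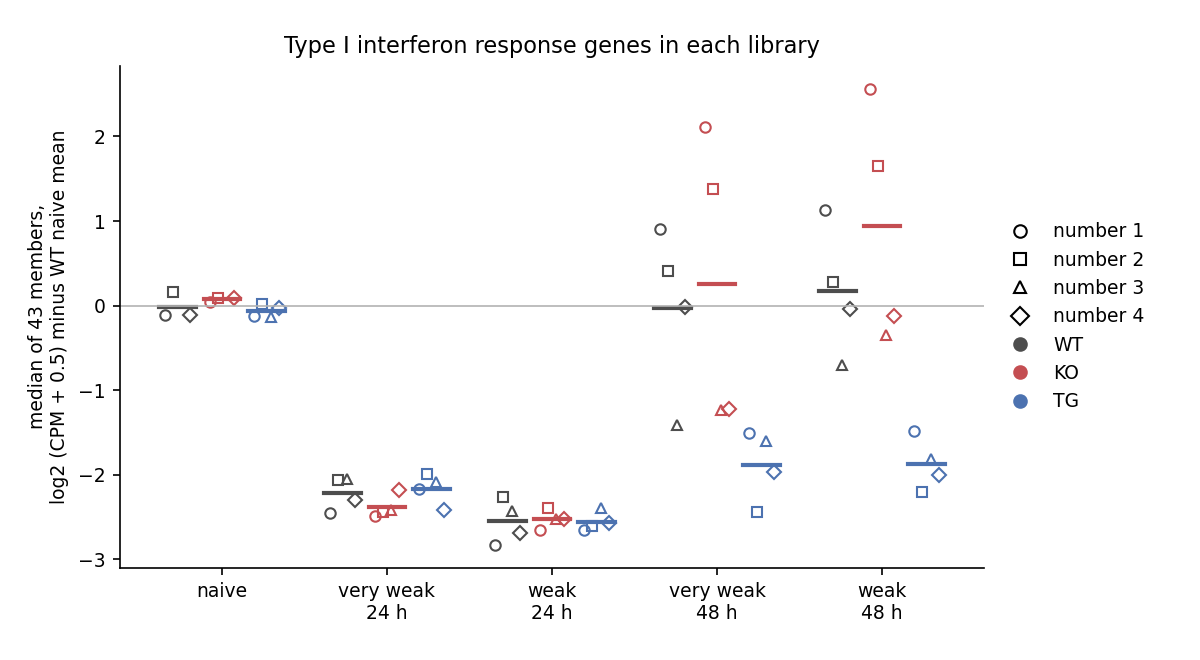
Median over the 43 members of log2 (CPM + 0.5) minus the WT naive mean, 1 point per library, by state (x axis) and genotype (colour), with a bar at each group's mean and the marker shape giving the library number. All 24 h libraries lie between -2.83 and -2.0, and at 48 h KO libraries 1 and 2 stand highest while TG libraries stay between -2.44 and -1.48.

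Few members were called between genotypes at 24 h. Some were near the detection limit, such as Rsad2 with 16, 22 and 15 counts in all WT, KO and TG weak 24 h libraries. A difference in these could hardly be called. Usp18 had 127, 188, 153 and 121 counts in TG and 51, 103, 77 and 75 in WT weak 24 h libraries. It was not called (0.93 ± 0.86 on the log2 scale), though the libraries did not overlap. That SE also rests on the spread over all 15 groups, so members not called at 24 h were not shown to be alike. In TG against WT weak 24 h cells 15 members were above and 28 below WT. In KO against WT cells 0 of 43 members were called with the very weak stimulus, against 1.06% of genes, with 2 members at an unadjusted p under 0.05, and 0 with the weak one, against 1.40%, with 1. DESeq2 also called 0 in each. In TG against WT cells only Phf11b, a zinc finger gene, was called among the members, against 1.92% of genes lower (very weak) and 2.54% lower (weak). Phf11b stood at 31.1, 37.6, 42.4 and 43.5 CPM in WT weak 24 h libraries 1 to 4 and at 13.1, 15.8, 19.4 and 15 CPM in TG ones, with no overlap. Its log2 change was -1.16 ± 0.30 (adjusted p = 0.015, edgeR) with the very weak and -1.29 ± 0.31 (adjusted p = 0.0068) with the weak stimulus, and 0 members were called within numbers 1 and 2 alone.

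At 48 h the members were back at or above their naive level in many WT libraries. Over both strengths, 41 of 43 members rose in WT cells from 24 to 48 h and 0 fell, against 28.6% of genes higher. The median log2 change was 2.20 against 0.01 over all genes. This test counted the very weak and weak libraries of a number as separate. At 48 h these deviated together (correlation 0.277 to 0.631), so its p-values may be too small. The largest rises were those of Rsad2 (5.91 ± 0.96, adjusted p = 1.0e-06, edgeR), Oasl1 (5.52 ± 0.86), Mx1 (5.49 ± 0.73) and Isg15 (5.23 ± 0.63, adjusted p = 1.7e-09) on the log2 scale. Ifi44, Oas3, Cmpk2, Usp18 (4.38 ± 0.62) and Irf7 (4.11 ± 0.56) followed. Stat2 rose by 2.22 ± 0.29, Ifit1 by 2.99 ± 0.54, Oas2 by 2.11 ± 0.57 and Irf9 by 0.47 ± 0.13 (adjusted p = 0.0017). Ifit3 (1.14 ± 0.59, adjusted p = 0.098) and its copy Ifit3b (1.07, adjusted p = 0.13) did not pass the test. All 8 WT libraries at 48 h lay above all 8 at 24 h for 24 of 43 members, against 11% of genes. The same held for 29 members in KO (7.87% of genes) and 9 in TG cells (12.4%), which were Oas3, Oasl1, Isg15, Usp18, Stat2, Ifih1, Parp9, Lgals3bp and Tor3a.

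Compared with naive cells, the members of WT cells at 48 h did not move one way. With each strength 8 members were above and 7 below the naive level, against 38.7% of genes higher and 39.0% lower (very weak) and 39.4% and 38.9% (weak). Isg15, the ubiquitin-like modifier, stood at 28.6, 35.2 and 19.5 CPM in WT naive libraries. At 48 h WT libraries 1 to 4 held 238, 164, 11.6 and 81.1 CPM with the very weak and 315, 198, 38.1 and 100.5 CPM with the weak stimulus. Its log2 change was 2.15 ± 0.83 (adjusted p = 0.017, edgeR) and 2.55 ± 0.85 (adjusted p = 0.0059). Mx1, a GTPase against influenza and related viruses, rose by 2.70 ± 0.96 and 3.21 ± 0.98 over the naive level, and Mx2, Ifih1, Eif2ak2, Bst2, Phf11b and Parp9 rose with both strengths. Oas2 remained below naive by 4.75 ± 0.73 and 4.49 ± 0.72 on the log2 scale, and Samd9l, Rtp4, Ifit3b, Ifit3, Sp100 and Irf9 were also lower with both. Stimulus strength itself made no called difference in WT cells. Weak against very weak gave 0 of 43 members called and 0.0% of genes, with 0 members at an unadjusted p under 0.05, 0 by DESeq2 and a median of 0.01.

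**Figure D2:**
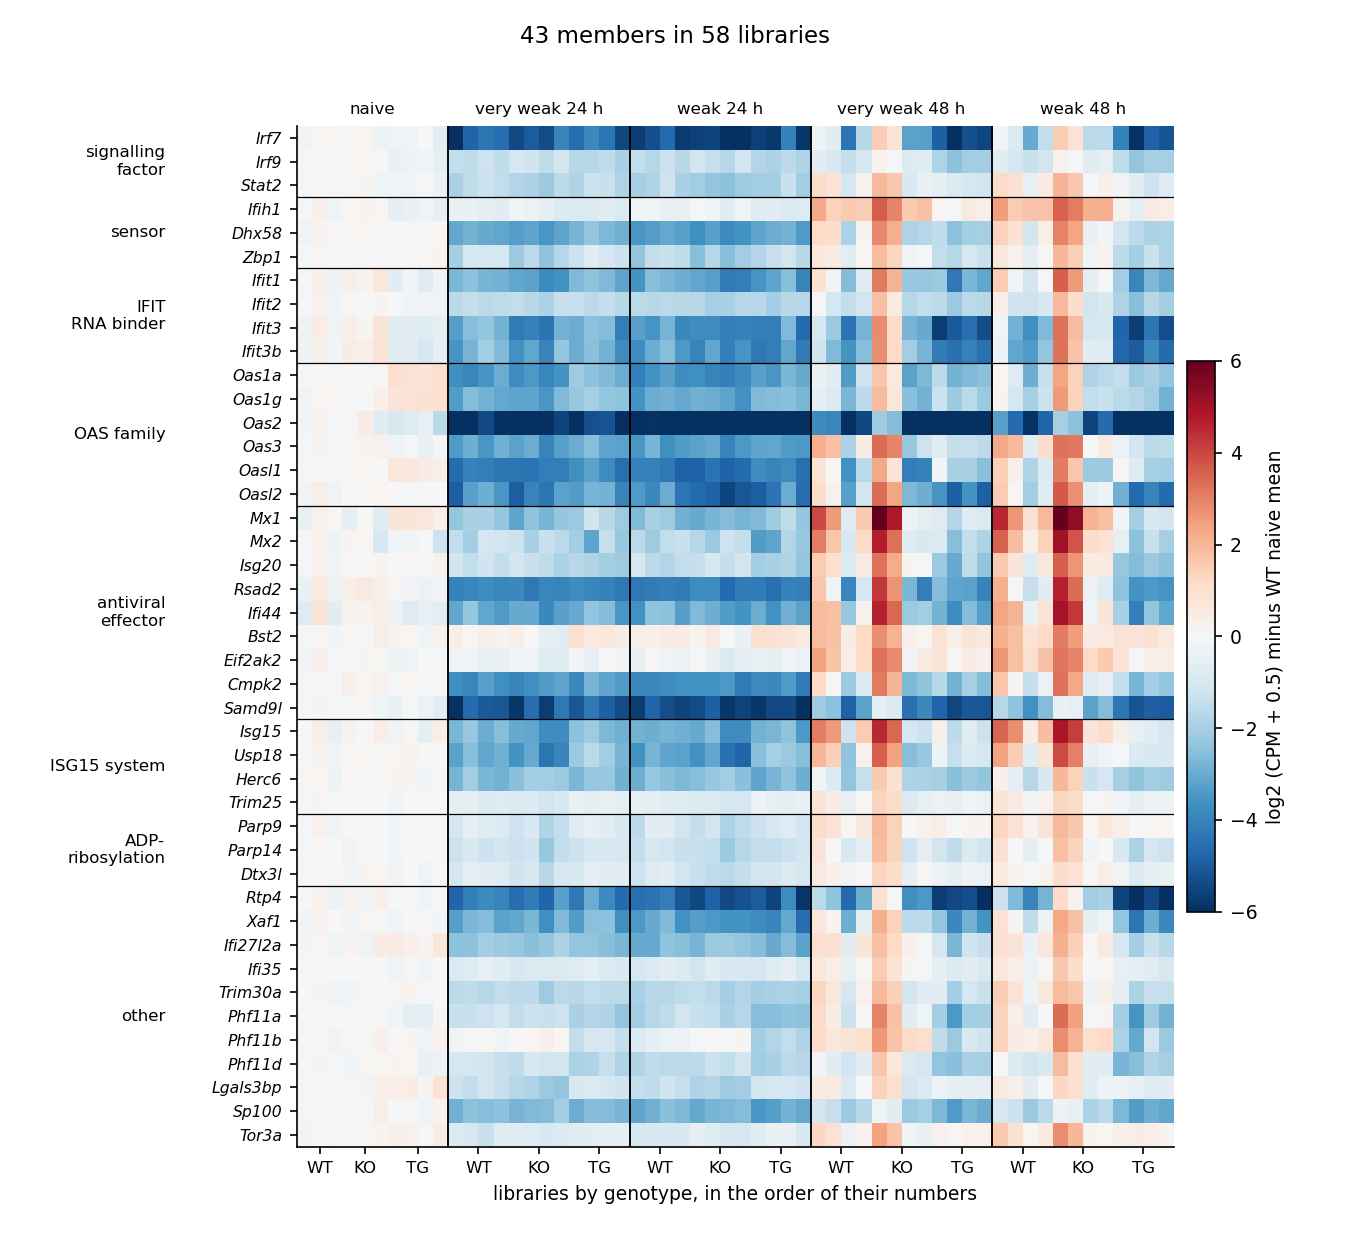
Each row is a member, grouped by role, and each column a library, grouped by state and genotype in the order of the numbers. Colour gives log2 (CPM + 0.5) minus the WT naive mean, with values past 6 in the end colours. Nearly every row is blue at 24 h, and at 48 h the KO columns 1 and 2 are red in most rows, such as Isg15 at 837 CPM in KO weak library 1.

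KO cells at 48 h had more RNA of every member than WT cells on average, though not at every number. The excess was largest in libraries 1 and 2. At number 4 KO was over WT for 4 (very weak) and 17 (weak) members. All 43 fitted log2 differences were above 0 with each strength, with medians of 1.11 (very weak) and 1.25 (weak) against 0.00 over all genes. Of the 43, 5 rose with the very weak stimulus, against 3.06% of genes, and 10 with the weak one, against 3.05%. At an unadjusted p under 0.05 there were 26 and 29. Ifit3, which binds viral RNA together with IFIT1, stood at 17.9, 8.14, 1.29 and 5.13 CPM in WT very weak libraries 1 to 4 and at 272, 85.7, 5.19 and 4.25 CPM in KO ones. With the weak stimulus it held 31.5, 4.85, 2.55 and 5.65 CPM in WT and 375, 139.5, 18.2 and 19.1 CPM in KO libraries, so KO libraries 1 and 2 were above every WT library and 3 and 4 were not. Its log2 difference was 3.5 ± 0.82 (adjusted p = 0.0062, edgeR) and 3.63 ± 0.82 (adjusted p = 0.0042).

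Ifit3b gave 3.72 ± 0.80 and 3.69 ± 0.79 on the log2 scale. Irf9 stood at 119, 95.4, 69.2 and 89.0 CPM in WT and 215, 168, 106 and 111 CPM in KO very weak libraries, higher in KO at each number. It rose by 0.69 ± 0.18 (adjusted p = 0.017, edgeR) and 0.83 ± 0.18 (adjusted p = 0.003). Ifih1 rose by 0.98 ± 0.27 and 0.94 ± 0.27 and Rtp4, a chaperone of receptor transport, by 2.21 ± 0.66 and 2.39 ± 0.66. With the weak stimulus Oas1g, Isg20 (an exonuclease acting on RNA), Phf11a, Phf11b and Phf11d also rose. Of the 9 members set to be named whatever their values, those other than Ifit3 and Irf9 did not pass the test. Isg15 gave 0.97 ± 0.71 (adjusted p = 0.50) and 1.15 ± 0.71 (adjusted p = 0.38), Mx1 2.05 ± 0.81 and 1.92 ± 0.80, and Irf7 1.43 ± 0.67 and 1.53 ± 0.67 on the log2 scale. Ifit1, Usp18, Stat2 and Oas2 had adjusted p-values from 0.10 to 0.49 in edgeR.

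The calls differed with the library number. The split of the numbers into 1 and 2 against 3 and 4 was made with these values known, so calls within it only describe these libraries. Within numbers 1 and 2, 22 (very weak) and 25 (weak) members were higher in KO, among 292 and 240 of all 13709 genes called in either direction, with median log2 differences of 1.41 and 1.53. Within numbers 3 and 4, 0 members were called, among 284 and 333 genes, with medians of -0.41 and 0.18. Without KO library 1 the counts were 0 and 1, and without KO library 3 they were 21 and 18 (also 18 without WT library 1 for the weak stimulus). Counts were also summed over both strengths for each number, which gave 4 sums per genotype, a step added after the data had been seen. In these sums 0 of 43 members were called in KO against WT, against 1.75% of 12957 genes higher. Of them 11 had an unadjusted p under 0.05, DESeq2 called 3, and a fit with the replicate number as a block called 4. The 8 KO libraries and the 8 WT libraries at 48 h overlapped for every member, whereas 1.38% of genes separated.

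The signed KO effect was higher at 48 than at 24 h for 4 members in a test of that difference, against 0.562% of genes. They were Ifit3 (4.51 ± 0.86, adjusted p = 0.0045, edgeR), Ifit3b (4.41), Zbp1 (1.51) and Dtx3l (0.92), the ubiquitin ligase partner of PARP9, on the log2 scale. In all 4 the fitted KO effect was below 0 at 24 h and above 0 at 48 h. For Dtx3l it was -0.44 (very weak) and -0.55 (weak) at 24 h, and 0.46 and 0.38 at 48 h. For Zbp1 it was -0.71 and -0.58, then 0.76 and 0.96. Neither of these 2 genes was called against WT in any of these states. With the replicate block 7 members were called and by DESeq2 8. Between stimulated and naive cells, a difference in the KO effect was called by edgeR for 0 of 43 members, against 0.168% of genes, with 0 at an unadjusted p under 0.05 and 0 by DESeq2.

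TG cells at 48 h had less RNA of every member than WT cells on average, though not at every number. All 43 log2 differences were below 0 with each strength, with medians of -1.88 and -2.03 against 0.00 over all genes. Of the 43, 31 fell with the very weak stimulus, against 7.24% of genes, and 34 with the weak one, against 5.66%. All 3 signalling factors, all 3 sensors, 8 of 9 antiviral effectors and 9 of the 11 members without a shared role fell with both strengths. Irf7 stood at 97.4, 74.2, 5.35 and 36.1 CPM in WT very weak libraries 1 to 4 and at 3.63, 1.39, 2.60 and 2.21 CPM in TG ones. With the weak stimulus it held 104, 65.3, 14.4 and 43.3 CPM in WT and 6.76, 1.47, 3.76 and 2.89 CPM in TG libraries. TG was below WT at every number, though the TG library highest in Irf7 was above WT very weak library 3. The log2 difference was -4.43 ± 0.82 (adjusted p = 0.00014, edgeR) and -3.93 ± 0.78 (adjusted p = 0.00044).

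Mx1 stood at 5.27, 2.42, 5.45 and 4.82 CPM in TG very weak and at 8.03, 1.94, 4.79 and 4.20 CPM in TG weak libraries, against 154, 58.2, 5.35 and 29.5 and 232, 63.3, 18.7 and 38.6 CPM in WT. At number 3 with the very weak stimulus the values were close, and at the other numbers TG was far lower. Its log2 difference was -3.78 ± 0.92 and -4.21 ± 0.93 (adjusted p = 0.0035 and 0.0015, edgeR). Ifi44, Oasl2, Rtp4, Rsad2 and Mx2 also fell with both strengths. Isg15 fell by 2.78 ± 0.77 and 2.94 ± 0.77 on the log2 scale, from the WT values given above to 34.7, 9.12, 16.9 and 11 CPM (very weak) and 35.5, 19.9, 16.4 and 12.9 CPM (weak). Ifit1, Ifit3, Oas2, Stat2 and Irf9 fell too, Irf9 by 1.13 ± 0.18 and 0.93 ± 0.18.

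Some members did not pass. Usp18 gave -1.86 ± 0.76 (adjusted p = 0.095, edgeR) and -2.03 ± 0.76 (adjusted p = 0.081), with 31.7, 14.9, 21.2 and 19.8 CPM in TG and 158, 107, 7.10 and 46.9 CPM in WT very weak libraries, the order being reversed at number 3. Oas1a, Oas1g, Oasl1, Bst2, Parp9, Lgals3bp, Trim25 (an E3 ligase for ISG15 and RIG-I) and Tor3a missed the threshold with both strengths as well. Within numbers 1 and 2, 39 and 40 members were lower in TG, among 957 and 900 of all 13709 genes called in either direction, with medians of -2.52 and -2.46. Within numbers 3 and 4 there were 12 and 24, among 715 and 420 genes, with medians of -1.09 and -1.50. Without WT library 1 the counts were 21 and 21.

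In the 48 h sums 14 of 43 members fell in TG against WT, against 4.85% of genes. The fit with the replicate block called 29 and DESeq2 27, and 3 were called without TG library 2. The 14 included Irf7 (-4.16 ± 0.95, adjusted p = 0.018, edgeR), Irf9 (-1.03 ± 0.22, adjusted p = 0.014), Ifi44, Rtp4, Oasl2, Isg20 and Phf11b (-2.50 ± 0.40, adjusted p = 0.0035). The TG effect was lower at 48 h than at 24 h for 21 members in the test of that difference, against 1.23% of genes, with 33 by DESeq2. Ifi44 (-4.67 ± 1.31), Rtp4 (-4.51 ± 0.93) and Irf7 (-4.46 ± 0.81, adjusted p = 0.001, edgeR) had the largest of these differences. Against the naive state, the averaged stimulated TG effect was lower for 3 members, Isg20 (-1.98), Phf11b (-1.91) and Ifi27l2a (-1.54), against 3.63% of genes, and 5 with the replicate block. When counts were summed over all 4 stimulated states, Ifit3b (3.17 ± 0.84) and Irf9 (0.56 ± 0.15) rose in KO against WT, against 3.59% of genes. With the replicate block 4 members rose. In TG against WT 11 fell, against 7.25% of genes, and 25 with the block. The average of the 4 stimulated states over 16 libraries, in place of sums, called 10 members higher in KO (13.0% of genes) and 33 lower in TG (17.7%). It counted the 4 libraries of a number as separate, which the sums do not. In introns of the stimulated sums 0 rose in KO, against 0.0313% of genes, with 15 at an unadjusted p under 0.05, 0 by DESeq2 and 2 with the block, and 4 fell in TG, against 1.06%, with 16 with the block.

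**Figure D3:**
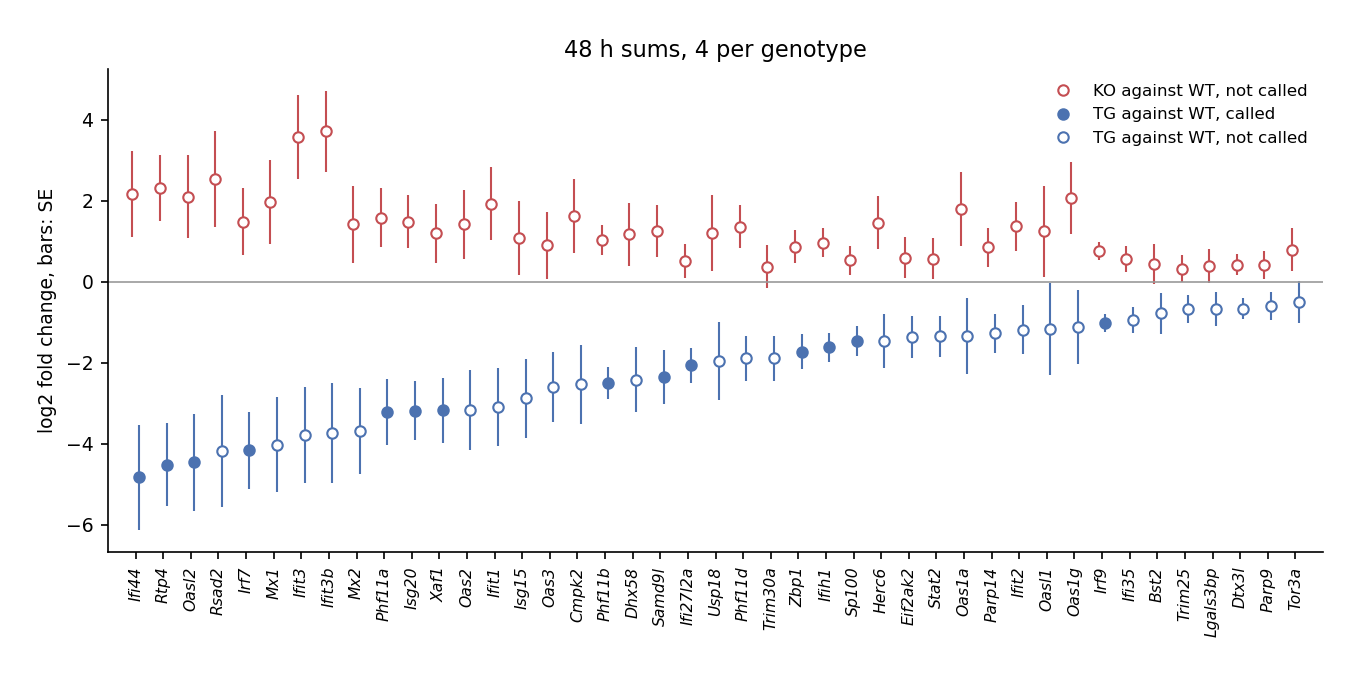
Log2 fold change against WT in the 48 h sums (4 sums per genotype) for each of the 43 members, ordered by the TG value, with bars for the SE and filled points for members called by edgeR. Every KO point lies above 0, up to 3.71 for Ifit3b, and every TG point below it, down to -4.83 for Ifi44, and 14 TG points and 0 KO points are filled.

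TG and KO cells, both with Cre, stood furthest apart. In the 48 h sums 39 of 43 members were lower in TG than in KO, against 20.1% of genes, with a median log2 difference of -3.18 against -0.01 over all genes. Ifit3b (-7.44 ± 1.28), Ifit3 (-7.36 ± 1.30, adjusted p = 0.001, edgeR), Ifi44 (-7.00), Rtp4 (-6.82) and Rsad2 (-6.72) differed most. Irf7 gave -5.64 ± 1.01, Mx1 -6.0 ± 1.27, Ifit1 -5.01 ± 1.05, Oas2 -4.58 ± 1.02, Isg15 -3.95 ± 1.02, Usp18 -3.17 ± 1.0, Stat2 -1.92 ± 0.52 and Irf9 -1.79 ± 0.23, all called. The 4 members that were not called were Lgals3bp, Oasl1, Tor3a and Bst2. In mean CPM the KO level was 1.99 times (Trim25) to 176 times (Ifit3b) the TG level, with a median of 9.10. Within numbers 1 and 2 all 43 were lower, among 2919 of all 12957 genes called in either direction, and within numbers 3 and 4 27, among 4054 genes, with a median of -1.20. All 8 KO libraries lay above all 8 TG libraries for 16 members, against 8.35% of genes, and all 8 WT above all 8 TG for 14, against 3.73%. Per kilobase of exon, KO weak 48 h cells held most of Ifi27l2a (499 CPM per kb), Isg15 (478) and Bst2 (312), and TG ones most of Bst2 (125) and Ifi27l2a (76.7).

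The number of a library went with the level of the members at 48 h. Library 1 was the highest of its group for all 43 members in the WT and KO groups of each strength. Library 3 was the lowest for 41 (very weak) and 42 (weak) members in WT. KO weak library 1 was the highest of all 58 libraries for 32 members and KO very weak library 1 for 8. The median over members of the SD divided by the mean was 1.03 and 0.919 in KO, 0.627 and 0.595 in WT and 0.324 and 0.328 in TG cells at 48 h. In KO cells libraries 1 and 2 lay above libraries 3 and 4 for 43 of 43 members, against 13.0% of genes, in WT for 33, against 6.01%, and in TG for 2 (Oasl1 and Lgals3bp), against 6.92%. This comparison has no test, since the split was chosen with the values known. A test of any difference between the 4 numbers over the 48 stimulated libraries called 37 of 43 members, against 56.0% of genes. The members not called were Sp100, Dtx3l, Phf11d, Phf11b, Zbp1 and Ifi27l2a. Within KO libraries it called 36 members and 2883 of all 12837 genes, within WT 11 members and 1389 genes, and within TG 9 members and 1646 genes.

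The order KO over WT over TG held at numbers 1 and 2 for all 43 members with both strengths, where it held for 23.1% to 29.4% of all genes. At number 3 it held for 19 members (very weak) and 37 (weak), against 27.2% and 29.2%, and at number 4 for 4 and 17, against 23.2% and 27.7%. WT was over TG for 24 (very weak) and 40 (weak) members at number 3 and for 42 and 43 at number 4, against 50.0% to 50.5% of genes. KO was over WT for 27 and 39 members at number 3 and for 4 and 17 at number 4, against 47.8% to 49.7% of genes. At number 3 with the very weak stimulus, WT and TG were thus close, with a median log2 difference of -0.10 over the members. Irf7, averaged over both strengths, shows this order. It stood at 100.8, 69.7, 9.88 and 39.7 CPM in WT libraries 1 to 4, at 346, 217, 25.6 and 26.1 CPM in KO and at 5.19, 1.43, 3.18 and 2.55 CPM in TG ones. KO was highest at numbers 1, 2 and 3 and WT at number 4, and TG was lowest at each.

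**Figure D4:**
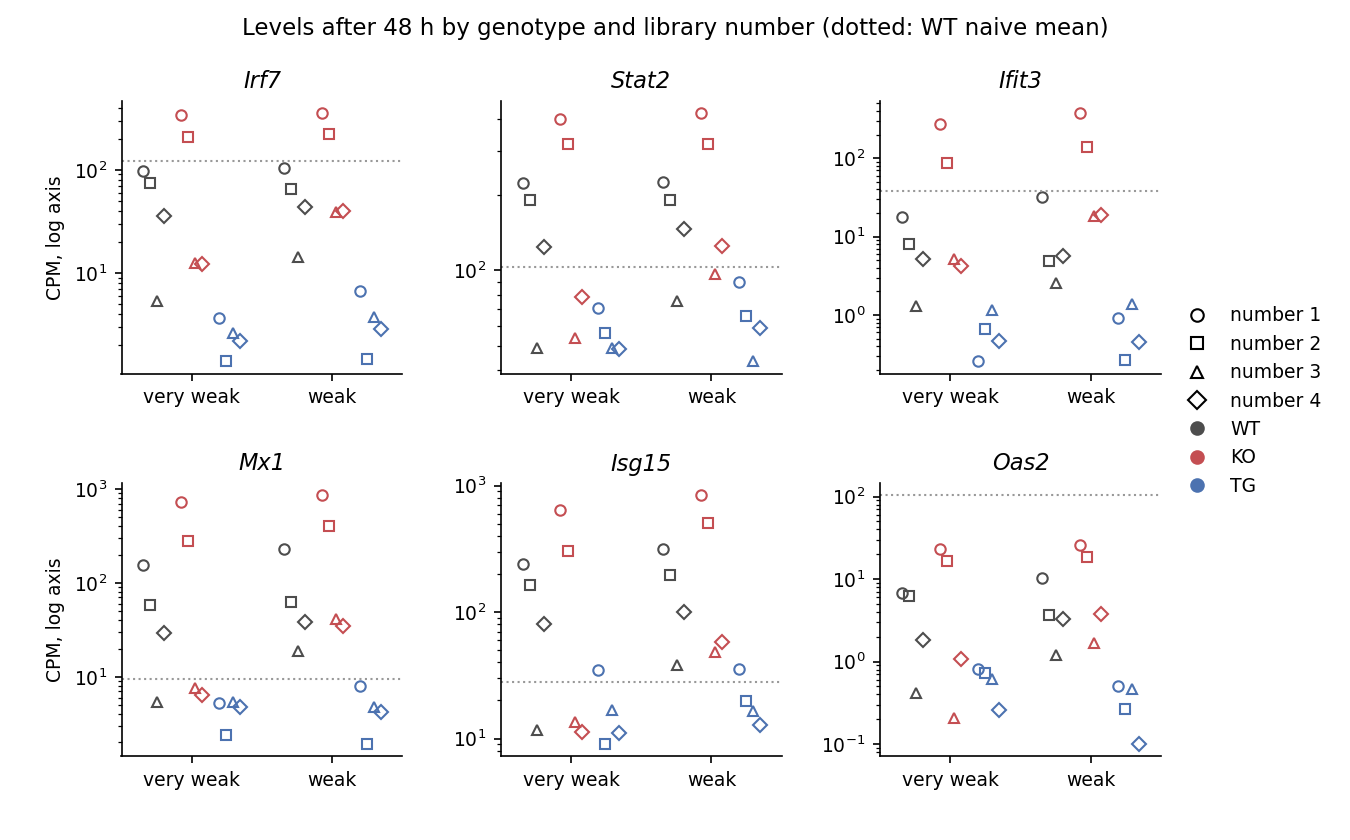
CPM on a log axis of Irf7, Stat2, Ifit3, Mx1, Isg15 and Oas2 in each 48 h library, by stimulus strength (x axis), genotype (colour) and library number (marker), with a dotted line at the WT naive mean. Within each strength KO libraries 1 and 2 are the top points of each panel, such as Mx1 at 728 and 280 CPM with the very weak stimulus. For Oas2 all 24 libraries lie below the naive line.

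The genes of type I interferon itself followed the same order in the libraries. The 18 type I interferon genes listed had few reads in naive cells and at 24 h. Their summed counts over all libraries of a set were 8 in WT, 7 in KO and 4 in TG naive cells, and 13, 9 and 19 at 24 h. At 48 h they summed to 375 in WT, 4080 in KO and 28 in TG cells. KO libraries 1 to 4 held 981, 154, 3 and 5 counts with the very weak and 2518, 383, 23 and 13 with the weak stimulus. WT libraries held 104, 32, 4 and 20 and 139, 37, 10 and 29 counts, and TG libraries 4, 2, 2 and 2 and 7, 4, 2 and 5. KO libraries 1 and 2 were thus above every WT library, KO libraries 3 and 4 overlapped WT, and no TG library exceeded 7 counts. Near-identical interferon-alpha genes may share reads, so the sum is given in place of single genes.

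Ifnb1, the single interferon-beta gene, had 0 counts in all naive and 24 h libraries. At 48 h it had 219, 35, 3 and 0 counts in KO very weak libraries 1 to 4 and 687, 112, 7 and 5 in KO weak ones. WT libraries had 28, 10, 1 and 2 and 40, 11, 3 and 6 counts, and TG libraries 1, 0, 1 and 0 and 1, 0, 0 and 0. In the 48 h sums Ifnb1 was lower in TG than in KO (adjusted p = 0.0056, edgeR), and the comparisons of KO with WT (adjusted p = 0.18) and of TG with WT (adjusted p = 0.19) did not pass. No fold is given, since the TG level is at the detection limit. Of the 6 ligands tested among 21 listed, Ifna2, Ifna4, Ifnl2 and Ifnl3 were also lower in TG than in KO, against 20.1% of genes. Ifnb1, Ifna2 and Ifna4 had few or no counts in TG libraries, so they passed the count filter through KO and WT libraries. They could thus only come out lower in TG, and their calls add nothing to the counts above. Whether Ifnl2 and Ifnl3 passed the filter in the same way is not given here. The 20.1% of genes is therefore no fair measure for these ligands.

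**Figure D5:**
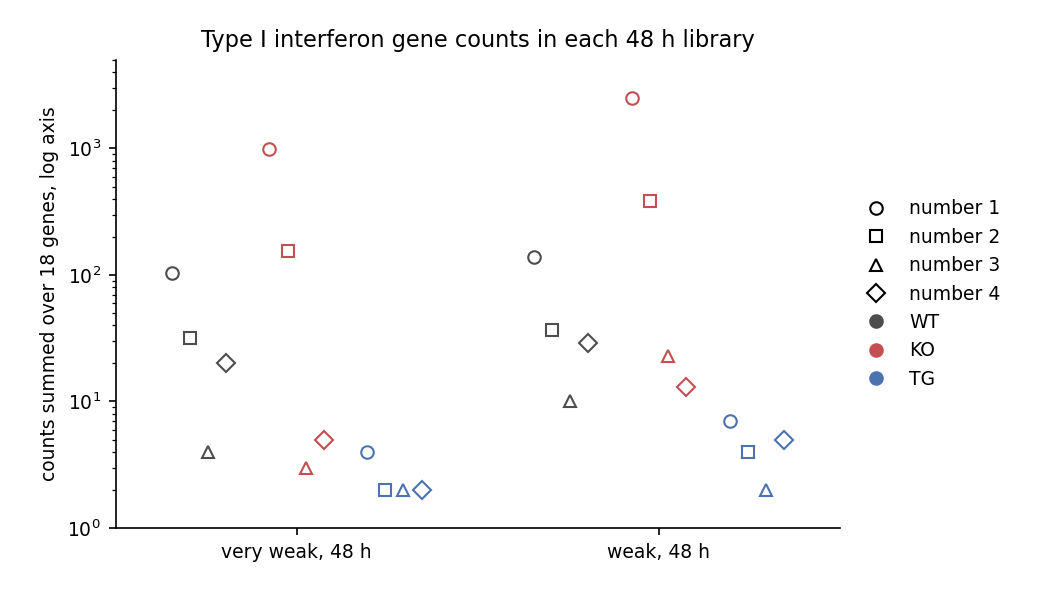
Counts summed over the 18 type I interferon genes, on a log axis, in each 48 h library by stimulus strength (x axis), genotype (colour) and number (marker). KO libraries 1 reach 981 and 2518 counts, and the 8 TG libraries stay between 2 and 7.

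Ifng, the type II interferon made by T cells and natural killer cells, ran the other way. Averaged over both strengths at 48 h it stood at 29.9, 46.7, 20.3 and 25.7 CPM in WT libraries 1 to 4, at 16.7, 17.5, 3.31 and 6.63 CPM in KO and at 94.1, 269, 69.9 and 79.8 CPM in TG ones. TG was above WT and WT above KO at each number. In the 48 h sums it rose in TG against WT by 2.05 ± 0.54 on the log2 scale (adjusted p = 0.035, edgeR) and was higher in TG than in KO by 3.53 ± 0.58 (adjusted p = 0.00062), while KO against WT gave -1.48 ± 0.54 (adjusted p = 0.17).

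The receptor and JAK kinase genes named here differed less than the median member. Of 8 receptor and JAK kinase genes tested in the 48 h sums, 5 were lower and 1 higher in TG than in KO. Jak1 differed by -0.83 ± 0.08, Tyk2 by -0.62 ± 0.13, Ifnar1 by -0.63 ± 0.14 (adjusted p = 0.0045, edgeR) and Ifnar2 by -0.48 ± 0.12 (adjusted p = 0.0075) on the log2 scale, and Ifngr2, a receptor chain for interferon-gamma, was higher by 0.64 ± 0.14. Against WT, Jak1 rose in KO by 0.40 ± 0.08 and fell in TG by 0.43 ± 0.08, and Ifnar1 and Ifnar2 passed in neither (KO 0.36 and 0.14, TG -0.27 and -0.34). In WT cells Ifnar1 fell by 1.75 ± 0.15 and Ifnar2 by 1.26 ± 0.11 from naive to weak 24 h, and they rose by 0.80 ± 0.10 and 0.53 ± 0.08 from 24 to 48 h.

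Irf1 and Irf2, further transcription factors of the interferon response, were lower in TG than in KO. Irf1 fell in TG against WT by 0.56 ± 0.13 on the log2 scale (adjusted p = 0.017, edgeR) and gave 0.20 ± 0.13 in KO (adjusted p = 0.43). Irf2 fell in TG by 0.73 ± 0.12 and rose in KO by 0.51 ± 0.12. In WT cells Irf1 did not pass the test from naive to weak 24 h (0.13, adjusted p = 0.45) or from 24 to 48 h (-0.16, adjusted p = 0.20).

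Both enzymes that attach ISG15, Uba7 and Ube2l6, were lower in TG than in KO, with log2 differences of -2.96 ± 0.39 and -0.99 ± 0.32. Of 15 nucleic acid sensing genes tested, 5 were lower (among them Samhd1 at -1.22, Adar at -1.22 and Tbk1 at -0.44) and 2 higher (such as Tlr9 at 1.55). Of 7 pathway inhibitors, 2 were lower (Pias1, Ptpn6) and 1 higher (Ptpn2). Of 17 genes known to respond to interferon-gamma, 11 were lower and 0 higher in TG than in KO, such as Nlrc5 at -1.12, Gbp4 at -1.25 and Psmb9 at -0.67. For all these lists 20.1% of all genes tested were lower and 17.6% higher.

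Summed markers of other cells at 48 h were far lower than in naive cells, except the sum of the natural killer list. Plasmacytoid dendritic markers, known from the main interferon-producing cell of blood, summed to 14.4, 16.1, 10.1 and 10.5 CPM in KO libraries 1 to 4 (averaged over both strengths), to 14.1, 11.5, 13.0 and 13.4 CPM in WT and to 14.8, 14.6, 14.5 and 14.4 CPM in TG ones. Siglech, a defining marker of that cell, had 4 counts over all 24 libraries at 48 h, with 20 libraries at 0. The myeloid markers summed to 82.9, 66.3, 59.2 and 53.8 CPM in KO, 73.1, 61.2, 43.5 and 55.6 CPM in WT and 61.5, 54.6, 52.6 and 49.7 CPM in TG libraries. Library 1 was thus the highest of each genotype in these markers too. C1qa was at 0 in all 24 libraries and C1qb, C1qc and Fcna had 7, 3 and 2 counts. Other myeloid markers had more, with 134 counts of Adgre1, 124 of Lyz2, 46 of Mrc1, 42 of Cd14 and 20 of Csf1r. Over the 24 libraries at 24 h these 5 had 105, 373, 12, 65 and 48 counts. Adgre1 and Mrc1 were thus higher at 48 h and the others lower. Of the myeloid markers Adgre1 and Cd68 were lower in TG than in KO (2 of 5 tested). Natural killer markers summed to 119, 111, 39.3 and 44.7 CPM in KO libraries 1 to 4, a fall from numbers 1 and 2 to 3 and 4 like that of the members, against 122, 126, 115.5 and 98.2 CPM in WT and 87.8, 126, 104 and 76.5 CPM in TG ones. Ncr1, a defining natural killer marker, had 36 to 272 counts in each naive library and 0 to 6 in each at 48 h. The natural killer sum at 48 h thus came almost wholly from other genes of that list. B cell markers summed to 15.4 to 62.2 CPM and CD8 markers to 9.97 to 26.1 CPM over the 48 h libraries. What part these markers have in the member levels was not tested.

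The differences at 48 h were also present in the intron table. In the 48 h sums the sign was the same in the full and the intron table for 42 of 42 members tested in both (Oas1g did not pass the intron filter) in each of the 3 genotype comparisons. Median log2 differences were 1.02 in introns and 1.20 in the full table for KO against WT, -1.89 and -2.02 for TG against WT, and -2.86 and -3.21 for TG against KO. In introns 0 of 42 were called in KO against WT (0.00862% of 11607 genes higher, 13 members at an unadjusted p under 0.05, 3 with the replicate block). In TG against WT 8 fell, against 1.15% of genes, and 30 with the block. In TG against KO 38 were lower, against 8.62%.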

How the data were processed

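Gene counts of 58 polyA RNA libraries (stranded TruSeq, single-end reads per the labels' protocols) were analysed, in a full table and an intron table. Per the submitters' processing notes STAR 2.5.2a, FastQC 0.11.5, edgeR 3.24.3 and the build mm10 were used; how strand and overlapping genes were counted is not given in the sources used here. The deposited counts are whole numbers, not normalised. Of 24028 gene identifiers 23968 matched RefSeq and 7 GENCODE.

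Members and gene lists were chosen with earlier results of these data known. Any of the 43 members could be named, with up to 8 called members per direction by size and 9 set to be named whatever their values (Ifit1, Ifit3, Isg15, Usp18, Irf7, Irf9, Stat2, Oas2, Mx1); genes of other lists were named by adjusted p, with Ifnb1, Ifnar1, Ifnar2, Irf1 and Ifng always given. Some items withheld for evaluation are not reported here. One edgeR 4.0.16 quasi-likelihood fit (R 4.3.3, limma 3.58.1, TMM, filterByExpr) had a coefficient for each of 15 groups; adjusted p under 0.05 (Benjamini-Hochberg over all genes tested) counts as called. Counts were also summed over the stimulated states, and over both 48 h states, by genotype and number. DESeq2 1.42.0 was an alternative. On simulated counts with 200 genes changed 2-fold, 88.5% were recovered for KO against WT weak 48 h and 94.0% for the stimulated sums. The simulated libraries were independent, with a spread far below that of the members at 48 h. At weak 48 h the members' median SD divided by the mean was 0.919 in KO and 0.595 in WT. The recovery therefore does not tell how many changed members would be called.

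Same-numbered KO or TG and WT libraries of the 4 stimulated states deviated together (every pair's correlation 0.132 to 0.625), so fits with the number as a block are given where they change a result. WT libraries of the same number also deviated together between strengths, with correlations of 0.268 to 0.398 at 24 h and 0.277 to 0.631 at 48 h. Tests that pool both strengths without summing, among them those of 48 h against 24 h, count such libraries as separate. Their p-values may be too small. Full totals were 19.2 to 20.8 M and intron totals 2.74 to 9.11 M counts.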

Additional observations from a re-analysis of the deposited data

Results flagged for a closer look

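The 9 members set to be named whatever their values and the median over all 43 were examined in the 13 groups of 4 libraries, which made 130 sets of 4 values, and the other members were not examined singly. In 7 of these 130 sets 1 library lay far from the other 3. Chance alone gives about 1 in 20, so 7 is about as many as chance would give. Library 3 of TG weak 24 h cells was high in Ifit3 (5.67 CPM), Irf7 (6.72 CPM) and Stat2 (39.9 CPM), and library 3 of WT weak 24 h cells was high in Stat2 (42.7 CPM). Usp18 was high in TG weak 48 h library 1 (37.8 CPM) and Ifit3 in WT weak 48 h library 1 (31.5 CPM). Ifit3 in KO very weak 24 h library 4 was at 4.87 CPM, away from the other 3.

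By edgeR's test of that difference, the signed KO effect was higher at 48 h than at 24 h for 4 members. They were Ifit3 (4.51), Ifit3b (4.41), Zbp1 (1.51) and Dtx3l (0.92) on the log2 scale, each with a fitted effect below 0 at 24 h. The averaged TG effect in stimulated cells was below that in naive cells for Isg20 (-1.98), Phf11b (-1.91) and Ifi27l2a (-1.54).

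The TG effect at 48 h was below that at 24 h for 21 members. Among signalling factors and sensors these were Irf7 (-4.46), Irf9 (-0.77), Ifih1 (-1.25), Dhx58 (-2.72) and Zbp1 (-1.91). Among IFIT, OAS and ISG15 system genes they were Ifit1 (-2.88), Oasl2 (-4.35), Oas3 (-2.72), Isg15 (-2.93) and Usp18 (-2.85). Among antiviral effectors they were Mx1 (-4.37), Ifi44 (-4.67), Isg20 (-2.54) and Samd9l (-2.25). The others were Rtp4 (-4.51), Xaf1 (-2.85), Ifi27l2a (-1.89), Trim30a (-1.73), Phf11b (-1.29), Sp100 (-1.20) and Ifi35 (-0.91).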

How the results depend on the processing

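Of 149 counts of called members under another setting, 113 stayed within 1.5 times the main count. Of 2171 values of single genes, 1913 kept their direction and their side of the threshold, 256 kept the direction and no longer passed, and 2 reversed, both within numbers 3 and 4: Rtp4 in KO against WT very weak 48 h (-0.036) and Usp18 in TG against KO 48 h sums (0.099). The causes were not tested; fits within a pair of numbers hold fewer libraries.

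Within numbers 1 and 2, the counts called were 22 (KO very weak 48 h), 25 (KO weak 48 h), 0 (TG very weak and weak 24 h), 1 and 30 (KO and TG stimulated sums) and 31 (TG 48 h sums). Within numbers 3 and 4 they were 2 (KO very weak 24 h), 0 (KO very weak and weak 48 h), 12 (TG very weak 48 h), 0 (KO stimulated sums), and 1 and 25 (KO and TG 48 h sums). With the replicate block, which pairs libraries of the same number, they were 7 (KO effect, 48 h minus 24 h), 5 (TG effect, stimulated minus naive), 4 and 25 (KO and TG stimulated sums), 2 and 16 (their introns), 4 and 29 (KO and TG 48 h sums) and 3 and 30 (their introns), and no other count moved past 1.5 times. By DESeq2 they were 8 and 33 (KO and TG effects, 48 h minus 24 h), 5 and 22 (stimulated sums), 9 (TG stimulated introns) and 3 and 27 (48 h sums). The average over 16 stimulated libraries per genotype, in place of sums, gave 10 (KO) and 33 (TG). No filter gave 7 for TG stimulated introns. The test of the replicate number called 11 within WT and 9 within TG.

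Leaving out 1 library gave 32 to 38 and 35 to 38 (WT very weak and weak 24 h against naive), 12 to 17 (each 48 h strength against naive), 40 to 41 (WT 48 h against 24 h), 0 to 21 (KO very weak 48 h), 1 to 18 (KO weak 48 h), 0 to 1 (TG 24 h), 21 to 35 and 21 to 36 (TG very weak and weak 48 h), 0 to 4 and 3 to 12 (KO and TG stimulated sums), 1 to 3 (TG stimulated introns), 0 to 3 and 3 to 17 (KO and TG 48 h sums) and 34 to 42 (TG against KO 48 h sums). With few reads, interferon genes in naive, 24 h and TG libraries were at the detection limit.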
